A study of Mus musculus with 61 samples.

Results

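The cytotoxic lymphocyte genes described here were Gzma, Gzmb, Gzmk, Prf1, Nkg7, Klrk1, Klrd1, Eomes, Tbx21 and Ifng, followed through the lacrimal and the salivary glands of NOD mice, all of them male. They were taken by name, as the probe sets that the platform annotation gives to 1 of these symbols alone. That rule found 12 of the 45101 probe sets on the array, for 10 of the 18194 genes that have such a probe set. Prf1 and Eomes had 2 probe sets each and the other genes 1. A gene with 2 is given by the probe set with the higher mean over all arrays unless the other is named.

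Cytotoxic lymphocytes, chiefly CD8 T cells and natural killer (NK) cells, kill by releasing granules onto a target cell. Perforin opens the target membrane and granzymes, which are serine proteases, enter and set off cell death. Surface receptors of the killer cell lectin-like family help to select the target, and the T-box factors Eomes and T-bet drive the program, which includes the cytokine interferon-gamma. NOD mice develop autoimmune disease on their own, and lymphocytes gather in the lacrimal glands of males.

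RNA was measured on 61 Affymetrix mouse genome arrays, 31 of lacrimal and 30 of salivary glands, and each value is a log2 expression level after background correction and normalization by GCRMA. Treated mice received LTBR-Ig (mLTBR-mIgG1), a soluble lymphotoxin-beta receptor joined to mouse IgG1, or MOPC-21, a control mouse IgG1 antibody, by weekly injection into the peritoneum from week 8 of age, and were sampled at weeks 12 and 16. Untreated mice were sampled at weeks 8, 12, 14 and 16. This gave 8 groups in each gland, with 4 arrays each, except 3 for untreated lacrimal glands and 2 for LTBR-Ig salivary glands of week 12. The labels number the replicates and name no mouse, so p-values measure the spread between these samples. Both lacrimal glands of a mouse were combined into 1 sample, and a salivary sample combined the major salivary glands, so a sample holds the whole tissue with every cell in it. On each array 37.3% to 41.4% of probe sets were above a log2 value of 4, taken as the floor of detection. A probe set was tested in a tissue if any group had 2 or more arrays over that floor. A call required both a 2-fold change and a limma p under 0.05 after Benjamini-Hochberg adjustment.

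Of the 31 lacrimal arrays, 8 had high Amy1 (salivary amylase), from 8.84 to 15.31. They were spread over the LTBR-Ig (2 arrays), MOPC-21 (1) and untreated (1) groups of week 12 and the LTBR-Ig (2) and untreated (2) groups of week 16. Other salivary transcripts were high in further arrays. At week 16 the mean of 9 salivary genes was 9.95 and 8.235 in the LTBR-Ig arrays with low Amy1. It was at most 6.59 in the MOPC-21 arrays. Leaving out the 8 arrays therefore does not remove all salivary signal. The part of these 8 arrays in the results was not tested beyond leaving them out. Values without them are given for the members and for the lists of genes in the LTBR-Ig comparison of week 16. The lacrimal marker Pax6 was well above the floor in every lacrimal group, with means from 8.75 to 10.14.

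Promoters of 9 of the 10 genes matched the RefSeq table (GRCm38.p6), and Klrd1 had none there. The sequences of the other 5 genes that passed the floor in lacrimal glands are shown, because these are the genes whose levels moved together. Each is the 250 bases before the gene start, 5′ to 3′ on the strand of the gene, and capitals mark matches on either strand to the T-box core GGTGTG, the Runx core TGTGGT and the interferon-gamma activated site TTCNNNGAA. The motifs did not overlap each other in these promoters.
Gzma (chr13:113100982-113101231, minus strand): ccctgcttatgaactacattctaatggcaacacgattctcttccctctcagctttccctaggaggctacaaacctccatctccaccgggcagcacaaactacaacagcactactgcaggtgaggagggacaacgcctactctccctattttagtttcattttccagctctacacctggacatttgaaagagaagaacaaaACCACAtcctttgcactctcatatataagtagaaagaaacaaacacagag
Gzmk (chr13:113180966-113181215, minus strand): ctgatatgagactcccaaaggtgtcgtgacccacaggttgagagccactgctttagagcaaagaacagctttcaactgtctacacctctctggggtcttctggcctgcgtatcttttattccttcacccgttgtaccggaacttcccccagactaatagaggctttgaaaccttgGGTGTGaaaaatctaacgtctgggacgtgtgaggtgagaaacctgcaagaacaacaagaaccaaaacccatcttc
Nkg7 (chr7:43436888-43437137, plus strand): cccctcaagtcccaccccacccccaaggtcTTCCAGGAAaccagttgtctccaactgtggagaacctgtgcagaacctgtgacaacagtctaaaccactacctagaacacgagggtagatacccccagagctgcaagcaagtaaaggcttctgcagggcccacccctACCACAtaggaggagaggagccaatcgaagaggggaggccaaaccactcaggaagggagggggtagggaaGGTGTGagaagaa
Klrk1 (chr6:129623865-129624114, minus strand): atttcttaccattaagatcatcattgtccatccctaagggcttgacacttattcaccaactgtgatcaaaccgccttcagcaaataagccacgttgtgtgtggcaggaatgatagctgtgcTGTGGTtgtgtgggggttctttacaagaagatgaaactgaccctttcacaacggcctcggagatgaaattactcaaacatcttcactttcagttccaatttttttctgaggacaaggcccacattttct
Eomes (chr9:118477939-118478188, plus strand): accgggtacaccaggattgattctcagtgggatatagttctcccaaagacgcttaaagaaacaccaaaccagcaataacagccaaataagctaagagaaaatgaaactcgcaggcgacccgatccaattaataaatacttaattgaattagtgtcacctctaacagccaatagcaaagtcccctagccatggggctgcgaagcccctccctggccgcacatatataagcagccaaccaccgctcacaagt

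Among the 9 promoters, the T-box core was found in 2 (Nkg7 and Gzmk), the Runx core in 5 (Gzma, Gzmb, Prf1, Nkg7 and Klrk1) and the interferon-gamma activated site in 2 (Nkg7 and Ifng). Of 32841 promoters of the same length in the table, 16.3% held the T-box core, 14.0% the Runx core and 7.02% the activated site. Nkg7 was the only member with all 3, at 13, 83 and 220 bases before the start for the T-box core, the Runx core and the activated site. A match says only that these letters are there.

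In lacrimal glands 6 of the 10 genes passed the floor, namely Gzma, Gzmk, Nkg7, Klrk1, Klrd1 and Eomes. The other 4 stayed near background: Gzmb (granzyme B) reached at most 3.38, Prf1 (perforin) passed 4 in 1 array, Ifng (interferon-gamma) in 2 arrays and Tbx21 (T-bet) in 3 of the 31 arrays. In salivary glands Gzma alone passed, above 4 in 5 of 30 arrays, and the other 9 genes were under 4 in every array. The values of these genes are thus low on this platform, and a change near the floor is compressed on the log2 scale.

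**Figure D1:**
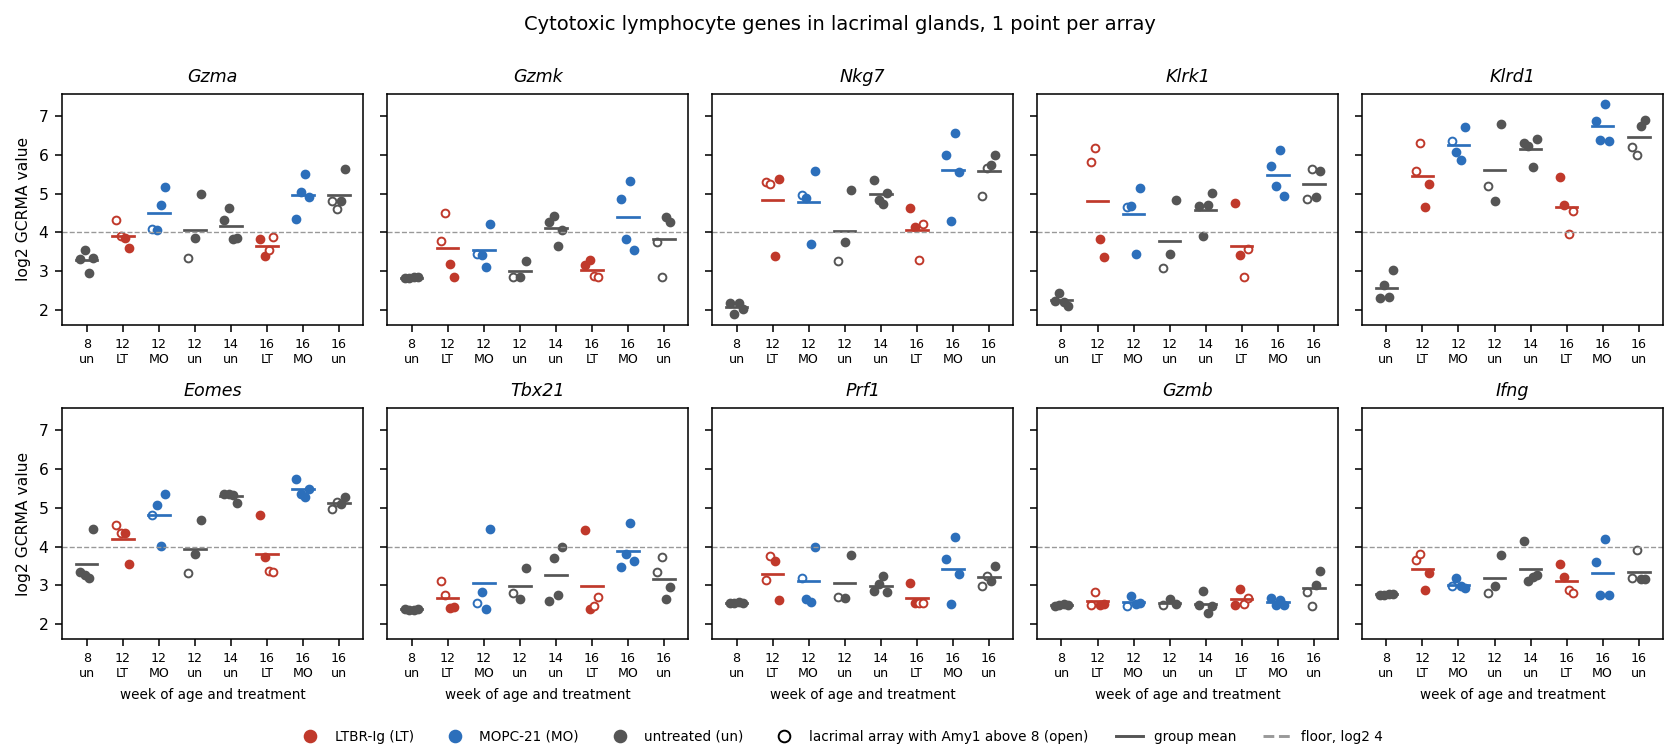
Log2 GCRMA values of the 10 genes in lacrimal glands by week of age and treatment, 1 point per array with a bar at the group mean and a dashed line at the floor of 4. Open points are arrays with Amy1 above 8. Klrd1 is at most 3.03 in the 4 arrays of week 8, from 3.97 to 5.43 in the LTBR-Ig arrays of week 16, and from 5.99 to 7.29 in the MOPC-21 and untreated arrays of week 16.

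At week 16, after 8 weeks of treatment, all 6 genes tested were lower in lacrimal glands given LTBR-Ig than in those given MOPC-21, by 2.44-fold to 4.17-fold (Gzma and Klrd1). In this comparison 5.54% of all 20077 probe sets tested were called lower. The median log2 change of the 6 genes was -1.59, where that of all 10121 genes tested was -0.03. In a whole gland, fewer cells of a type and less RNA per cell cannot be told apart. Arrays of LTBR-Ig and MOPC-21 mice did not overlap for 5 of the 6 genes, and they did for Nkg7 (12.7% of all probe sets tested had every LTBR-Ig array lower).

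Klrd1 encodes CD94, which pairs with NKG2 proteins into receptors for a non-classical class I molecule, and it changed most. Its log2 values were 5.43, 4.71, 3.97 and 4.55 in the LTBR-Ig arrays, against 6.86, 6.39, 7.29 and 6.36 in the MOPC-21 arrays and 6.21, 5.99, 6.73 and 6.89 in the untreated arrays. Every LTBR-Ig array was thus below every control array of week 16, as held against untreated mice for 14.2% of all probe sets tested. The log2 change was -2.06 (SE 0.364, limma adjusted p = 0.0042) against MOPC-21 and -1.79 (SE 0.364, adjusted p = 0.013) against untreated mice. Klrd1 was called against MOPC-21 in each of the 8 fits that left out 1 array, and so was Eomes. Klrd1 was the only member called when a posterior probability took the place of the adjusted p.

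Klrk1 encodes NKG2D, an activating receptor for stress-induced ligands. It was at 4.77, 3.43, 2.84 and 3.57 in the LTBR-Ig arrays, against 5.71, 5.19, 6.11 and 4.93 in the MOPC-21 arrays and 4.87, 5.64, 4.90 and 5.59 in the untreated arrays. The highest LTBR-Ig array lay just under the lowest control arrays. The log2 change was -1.83 (SE 0.502, limma adjusted p = 0.016) against MOPC-21 and -1.60 (SE 0.502, adjusted p = 0.044) against untreated mice. For NKG2D and CD94 ligands, 2 of the 10 genes listed had a probe set of their own (H60c and Ulbp1), and neither passed the floor.

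Among the granule genes, Nkg7, a membrane protein of cytotoxic granules, had 4.63, 4.15, 3.29 and 4.21 in the LTBR-Ig arrays, against 5.997, 4.30, 6.57 and 5.57 in the MOPC-21 arrays and 4.95, 5.65, 5.73 and 5.99 in the untreated arrays. MOPC-21 replicate 2 fell within the LTBR-Ig range and the untreated arrays did not. Gzma (granzyme A) had 3.83, 3.39, 3.55 and 3.87 in the LTBR-Ig arrays, all under the floor, against 4.34, 5.04, 5.50 and 4.92 in the MOPC-21 arrays and 4.80, 4.61, 4.82 and 5.64 in the untreated arrays. The log2 changes against MOPC-21 were -1.54 for Nkg7 (SE 0.458, limma adjusted p = 0.022) and -1.29 for Gzma (SE 0.301, adjusted p = 0.0093). Against untreated mice they were -1.51 for Nkg7 (adjusted p = 0.039) and -1.31 for Gzma (adjusted p = 0.018).

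Gzmk (granzyme K) was at 3.17, 3.28, 2.88 and 2.85 in the LTBR-Ig arrays, against 4.86, 3.83, 5.32 and 3.55 in the MOPC-21 arrays and 3.76, 2.87, 4.39 and 4.27 in the untreated arrays. It was lower by 2.54-fold against MOPC-21 (log2 change -1.34, SE 0.352, limma adjusted p = 0.013). All LTBR-Ig values, and the MOPC-21 values of 3.83 and 3.55, were under the floor. The call was lost in 2 of the 8 fits that left out 1 array. Against untreated mice its value was -0.78 (SE 0.352, adjusted p = 0.14), and untreated replicate 2 lay within the LTBR-Ig range, so no difference beyond the spread was shown there. Gzmk was the only tested member that differed in call between the control groups.

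Eomes, the T-box factor of memory CD8 T cells and NK cells, had 4.81, 3.74, 3.37 and 3.35 in the LTBR-Ig arrays, against 5.75, 5.36, 5.28 and 5.48 in the MOPC-21 arrays and 4.96, 5.15, 5.08 and 5.28 in the untreated arrays. All 8 control arrays were above all LTBR-Ig arrays, although LTBR-Ig replicate 1 lay just under the lowest of them. The log2 change was -1.65 (SE 0.319, limma adjusted p = 0.0052) against MOPC-21 and -1.30 (SE 0.319, adjusted p = 0.021) against untreated mice. Tbx21, the related factor T-bet, averaged 2.998 in LTBR-Ig arrays, with 1 array at 4.41 and the other 3 from 2.40 to 2.70, and 3.88 in MOPC-21 arrays.

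The 4 genes that did not pass the floor are given without a call. Prf1 had 3.06, 2.55, 2.56 and 2.55 in the LTBR-Ig arrays of week 16, against 3.67, 2.52, 4.24 and 3.28 in the MOPC-21 arrays, so the groups overlapped. In a fit of all 45101 probe sets without the floor, the log2 change was -0.75 for Prf1 (SE 0.312, limma adjusted p = 0.079), -0.88 for Tbx21 (SE 0.422, adjusted p = 0.12), -0.21 for Ifng (SE 0.284, adjusted p = 0.60) and 0.08 for Gzmb (SE 0.130, adjusted p = 0.66). At these levels a difference was not detectable, which does not show that there was none.

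Against untreated mice of week 16, 5 of the 6 tested genes were lower under LTBR-Ig, where 3.77% of all probe sets tested were called lower. MOPC-21 against untreated mice gave 0 calls among members and 0 (0%) among all probe sets, with 411 probe sets and 0 members at an unadjusted p under 0.05 by limma. The log2 changes of the 6 genes ran from -0.02 for Gzma to 0.57 for Gzmk. Both comparisons with LTBR-Ig share its 4 arrays.

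**Figure D2:**
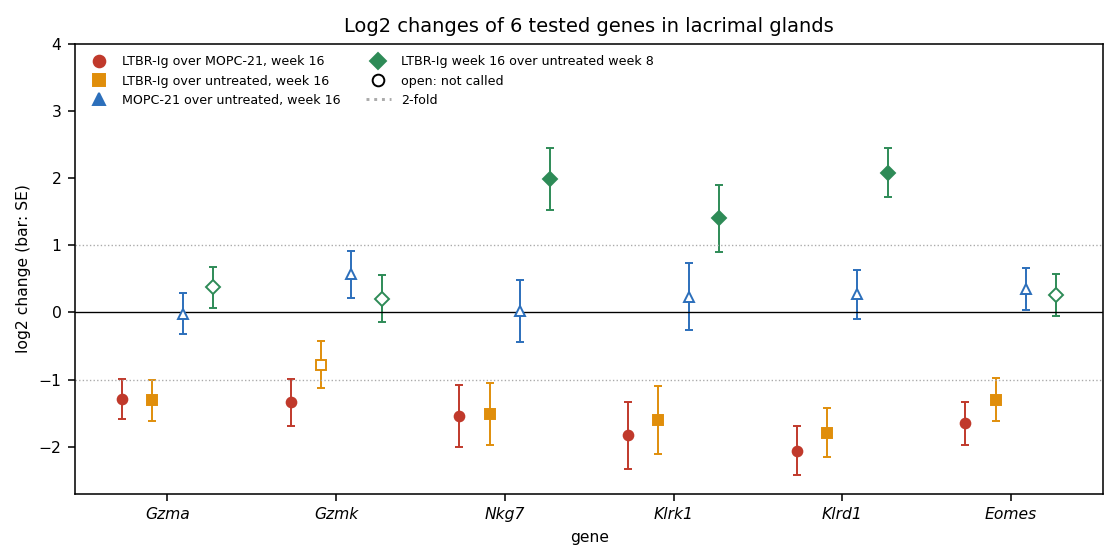
Log2 changes with standard errors of the 6 genes tested in lacrimal glands for LTBR-Ig over MOPC-21, LTBR-Ig over untreated and MOPC-21 over untreated at week 16, and for LTBR-Ig at week 16 over untreated at week 8. Filled points are called and dotted lines mark 2-fold. All 6 points of LTBR-Ig over MOPC-21 lie below the lower line, and Nkg7, Klrk1 and Klrd1 lie above the upper line for LTBR-Ig at week 16 over untreated at week 8.

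These counts depended on few arrays. Without the 8 lacrimal arrays high in Amy1, which leaves 2 LTBR-Ig arrays at week 16, 0 of the 6 genes were called against MOPC-21, with log2 changes from -1.66 (Klrd1) to -1.16 (Gzmk) and adjusted p from 0.14 to 0.30, and 22 of 19840 probe sets were called in all. Against untreated mice 0 were called on the same arrays, with log2 changes from -1.74 (Klrd1) to -0.91 (Eomes). Against MOPC-21 the count was 2 when MOPC-21 replicate 3 was left out and 3 when the LTBR-Ig array of that number was, and the Nkg7 call was lost in 3 of the 8 fits that left out 1 array. Against untreated mice the count was 5 in 2 of 8 such fits, without LTBR-Ig replicate 1 or untreated replicate 1. It was 3 without replicate 2 of either group, 2 without LTBR-Ig replicate 4 or untreated replicate 3, and 0 without LTBR-Ig replicate 3 or untreated replicate 4. Nkg7 and Klrk1 lost their call against untreated mice in 6 of the 8.

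Some genes of lists related to the cytotoxic program were also lower under LTBR-Ig than under MOPC-21 at week 16 over all arrays, where 5.54% of all probe sets were. Not all of these genes are particular to cytotoxic cells, and which cells carried them was not tested. Without the arrays high in Amy1, 1 of the 15 calls among these pathway lists was made, that of Cst7. Of 16 genes of granule cargo and release, 9 were tested, 4 were lower and 0 higher: Cst7 (cystatin F, an inhibitor of granule cathepsins) at -2.11, Ctsw (cathepsin W) at -1.69, Srgn (serglycin, the granule proteoglycan) at -1.52 and Stx11 (syntaxin 11, needed for granule release) at -1.06. Of the granzymes Gzmc to Gzmg and Gzmm, none passed the floor. Of 16 NK-type receptors and adaptors, 5 were tested and 2 were lower, Ncr1 (NKp46, an activating receptor of NK cells) at -1.28 and Tyrobp (DAP12, a signalling adaptor also used by myeloid cells) at -1.19. All of these values are log2 changes.

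Of 10 effector transcription factors, 9 were tested and 3 were lower: Stat4, which carries the interleukin-12 signal, at -2.40, Runx3, which acts with T-box factors in CD8 T cells, at -1.93 and Bach2, known to restrain effector differentiation, at -1.43. Of 12 inducers of Ifng and their receptors, 6 were tested and 3 were lower, Il18r1 at -1.47, Il21 at -1.36 and Il2rb at -1.20. Of 18 genes of the interferon-gamma receptor and its targets, 13 were tested and 3 were lower, Ciita (the master regulator of class II genes) at -1.27, Cxcl9 (a chemokine that draws effector T cells) at -1.22 and Ifngr1 at -1.14. Of 4 death ligands and receptors, 2 were tested and 0 were called, with log2 changes of median -0.44. Among all 20077 probe sets 0.339% were called higher here, and 0 genes of these lists were.

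Markers of other leukocytes were lower in the same arrays, where 5.54% of all probe sets tested were called lower and 0.339% higher. Called lower were 7 of 8 tested T cell genes (median log2 change -1.48), 6 of 6 B cell genes (-2.25), 3 of 6 myeloid genes (-1.06) and Ptprc (CD45, carried by all leukocytes; -1.42, from 9.29 to 11.62 in LTBR-Ig arrays, against 11.28 to 12.58 in MOPC-21 arrays). Of the salivary gland list, 7 of 9 genes were higher (median 4.85). Without the arrays high in Amy1 none of the T cell, B cell, myeloid and Ptprc calls was made, with median log2 changes of -0.96 for T cell genes, -1.42 for B cell genes and -0.67 for myeloid genes and -0.76 for Ptprc. Of the salivary genes, 2 of 8 tested were then called higher (Mucl1 and Crisp3). Their median log2 change was 5.05, so the salivary difference was no smaller, with 2 LTBR-Ig arrays left. The CD8 genes Cd8a and Cd8b1 did not pass the floor, with highest values of 4.25 and 4.06 over the lacrimal arrays, so CD8 T cells were not seen by their defining genes. The parts of T, B and myeloid cells and of salivary tissue in the members' changes were not tested.

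Set against the mean of the 8 T cell genes of the same array, the members differed less between groups. Klrd1 minus that mean was -0.37 ± 0.20 in LTBR-Ig arrays, against 0.13 ± 0.23 in MOPC-21 arrays and 0.13 ± 0.34 in untreated arrays of week 16 (SD, n = 4 each), on the log2 scale. For Nkg7 it was -0.96 ± 0.34 under LTBR-Ig, against -0.99 ± 0.58 under MOPC-21 and -0.74 ± 0.24 in untreated mice. For Eomes it was -1.21 ± 0.31 under LTBR-Ig, against -1.13 ± 0.49 under MOPC-21 and -1.20 ± 0.09 in untreated mice. For Klrk1 it was -1.38 ± 0.34 under LTBR-Ig, against -1.11 ± 0.36 under MOPC-21 and -1.07 ± 0.31 in untreated mice. Gzma was at -1.37 ± 0.72 under LTBR-Ig, -1.65 ± 0.49 under MOPC-21 and -1.35 ± 0.37 in untreated mice. Gzmk was at -1.99 ± 0.575, -2.21 ± 0.60 and -2.50 ± 0.67 in the same order. Both granzymes were under the floor in all LTBR-Ig arrays, which compresses this measure. Thus LTBR-Ig and MOPC-21 means lay within the spread of arrays for Nkg7, Eomes, Gzma and Gzmk. Klrk1 ranged from -1.86 to -1.13 under LTBR-Ig, against -1.64 to -0.896 under MOPC-21. Klrd1 ranged from -0.58 to -0.15 under LTBR-Ig, against -0.22 to 0.28 under MOPC-21. Set against the mean of 6 B cell genes instead, all 6 members had higher means under LTBR-Ig than under MOPC-21. Klrd1 was then at -1.94 ± 0.598 against -2.17 ± 0.445, and Gzma at -2.95 ± 1.13 against -3.94 ± 0.693. The part of either cell type in the members' changes was not tested. These are descriptions, with no test.

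**Figure D3:**
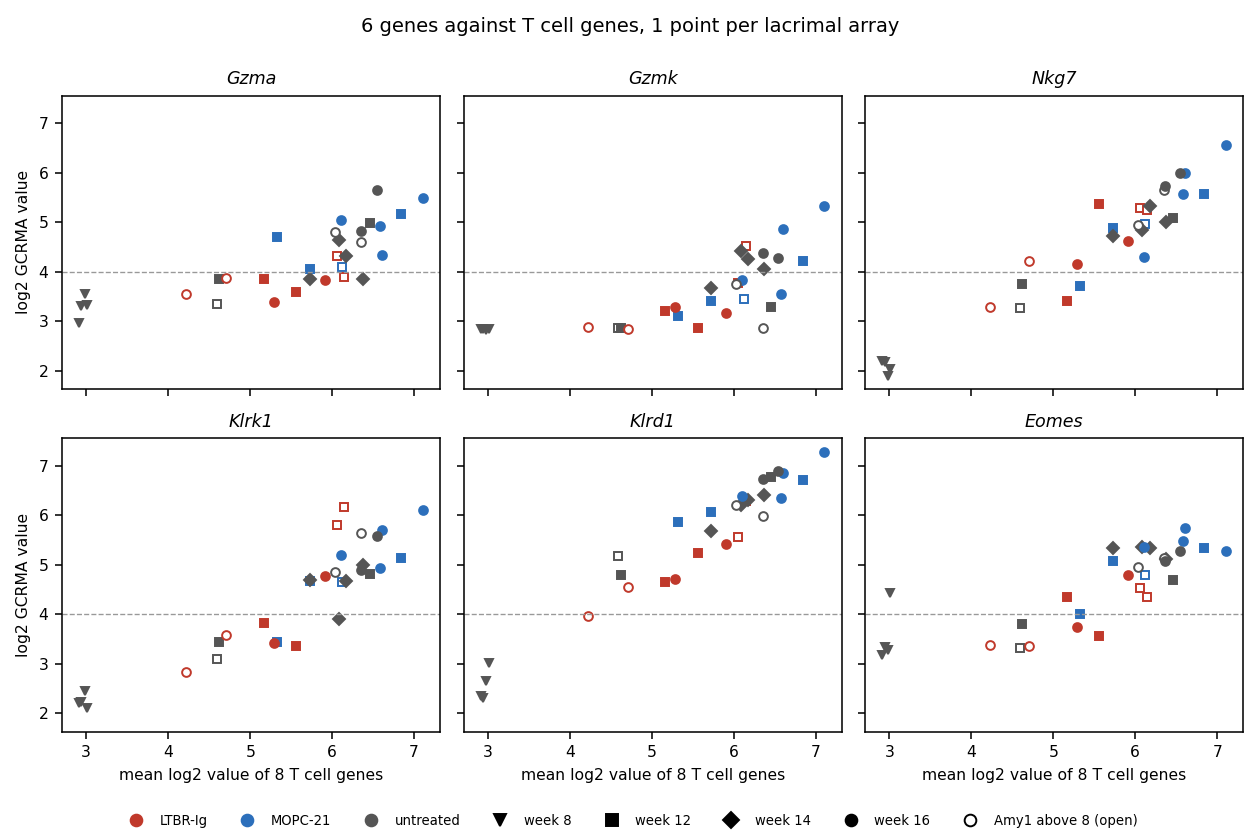
Log2 GCRMA values of the 6 genes against the mean log2 value of 8 T cell genes, 1 point per lacrimal array (31 arrays), coloured by treatment and shaped by week, with open points for arrays of Amy1 above 8. The 4 arrays of week 8 lie at the left of each panel and low in it, except that Eomes is at 4.44 in 1 of them, and Klrd1 rises with the T cell mean across the rest.

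Across the 31 lacrimal arrays, the correlation of each member with the T cell mean was 0.97 for Klrd1, 0.95 for Nkg7, 0.91 for Klrk1, 0.80 for Eomes, 0.78 for Gzma and 0.72 for Gzmk (Pearson's r). With the mean of 6 B cell genes it was 0.98 for Klrd1 and 0.71 for Gzmk, and with Amy1 it ran from -0.26 (Gzmk) to 0.10 (Klrk1). Among the members themselves r ran from 0.64 (Gzma and Gzmk) to 0.92 (Nkg7 and Klrd1). The arrays share the course of disease, so these values describe a common rise and carry no p.

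The genes most like each member over the same 31 arrays came from several cell types. For Klrd1 they were Lyz1, Lyz2 (lysozymes) and Ighv14-2, an immunoglobulin segment, each with r = 0.99. For Nkg7 they were Plbd1, Pip4k2a and Tspan32 (0.96), and for Klrk1 Nckap1l, Npc2 (0.94) and Myl12b (0.93). For Eomes they were Cyp1b1 (0.91), Bmt2 (0.90) and Paxbp1 (0.89), for Gzmk Ripk3 (0.86), S1pr1 and Elk4 (0.85), and for Gzma Txndc16, Jak1 and Rnf167 (0.88).

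At week 12, after 4 weeks of treatment, 0 of the 6 genes were called between LTBR-Ig and MOPC-21, where limma called 10 (0.0498%) of all probe sets. Klrd1 was at 5.57, 6.30, 4.66 and 5.23 in LTBR-Ig arrays, against 6.34, 6.07, 5.87 and 6.72 in MOPC-21 arrays, with a log2 change of -0.81 (SE 0.364, adjusted p = 0.51). Klrk1 was at 5.81, 6.17, 3.84 and 3.37 in LTBR-Ig arrays, against 4.67, 4.68, 3.44 and 5.13 in MOPC-21 arrays, with a log2 change of 0.32 (SE 0.502, adjusted p = 0.92). The highest Klrk1 values were thus in LTBR-Ig replicates 1 and 2, which are the arrays of that group with Amy1 above 8. These arrays also had the highest T cell means of the group, 6.05 and 6.15, against 5.17 and 5.56 in replicates 3 and 4. Ptprc was at 11.46 and 11.83 in them, against 10.58 and 10.6. Without the arrays high in Amy1 the Klrk1 change was -0.82. The parts of salivary tissue and of leukocytes in it were not tested. Klrd1 alone of the 6 had an unadjusted p under 0.05.

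LTBR-Ig against untreated mice of week 12 also gave 0 calls among members (0.00498% of all probe sets), with log2 changes from -0.15 (Klrd1) to 1.01 (Klrk1). The LTBR-Ig effect of week 16 was then set against that of week 12 in the same fit. The difference ran from -2.15 (Klrk1) to -0.70 (Gzma), with adjusted p from 0.30 to 0.39, and limma called 0 members and 0 (0%) of all 20077 probe sets. Of the 6 members, 5 had an unadjusted p under 0.05 and Gzma did not. A difference between the weeks was therefore not shown.

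In untreated mice, lacrimal levels rose with age. At week 16 against week 8, 5 of the 6 tested genes were higher, where 12.1% of all probe sets tested were called higher. Klrd1 had 6.21, 5.99, 6.73 and 6.89 at week 16, against 2.31, 2.65, 2.34 and 3.03 at week 8, a log2 change of 3.87 (SE 0.364, limma adjusted p = 3.8e-09). Nkg7 had 4.95, 5.65, 5.73 and 5.99 at week 16, against 2.18, 1.90, 2.20 and 2.04 at week 8, a log2 change of 3.50 (SE 0.458, adjusted p = 7.5e-07). Weeks 8 and 16 did not overlap for either gene (23.8% of all probe sets had every array higher at week 16), and all 4 values of week 8 lay under the floor, so both changes depend on where background sits.

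Klrk1 was 2.99 higher (SE 0.502), Gzma 1.68 (SE 0.301) and Eomes 1.56 (SE 0.319) on the log2 scale at week 16, with limma adjusted p of 0.00023 or less. All week 8 values of Klrk1 and Gzma lay under the floor. Those of Eomes did too, but for 4.44 in replicate 4, so these changes also depend on where background sits. Gzmk averaged 3.82 ± 0.69 in the older mice and 2.84 ± 0.01 in those of week 8 (SD, n = 4 for both) and missed the fold with a log2 change of 0.98 (SE 0.352, adjusted p = 0.021). At week 12 against week 8, 3 of the 6 were higher (Klrd1 at 3.01, Nkg7 at 1.96 and Klrk1 at 1.53), where 6.07% of all probe sets were called higher. All week 8 values of these genes were under the floor. Of the 3 arrays of week 12, Nkg7 was under it at 3.26 and 3.76 and Klrk1 at 3.095 and 3.44. The Klrk1 call was lost in 4 of the 7 fits that left out 1 array. Gzma was at 0.78 (adjusted p = 0.065), Eomes at 0.38 (0.41) and Gzmk at 0.16 (0.78) by week 12.

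Between weeks 12 and 16 of untreated mice 0 of the 6 were called (0.110% of all probe sets), with log2 changes from 0.82 (Gzmk) to 1.55 (Nkg7) and adjusted p from 0.085 to 0.19. That count rested on 1 array, since untreated replicate 4 of week 12, with 5.09 for Nkg7, against 3.26 and 3.76 in the other 2 arrays, gave 5 calls when left out. At week 14 Eomes was at 5.34, 5.35, 5.33 and 5.12, and Klrd1 at 6.31, 6.22, 5.69 and 6.41. The means at weeks 12, 14 and 16 were 3.94, 5.29 and 5.12 for Eomes, 2.998, 4.10 and 3.82 for Gzmk and 5.59, 6.16 and 6.45 for Klrd1, so Eomes and Gzmk were highest at week 14 and Klrd1 at week 16, with overlapping arrays at weeks 14 and 16 and no test of week 14.

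Leukocyte markers rose in the same arrays, with 8 of 8 tested T cell genes (median log2 change 3.38), 6 of 6 B cell genes (5.84), 6 of 6 myeloid genes (2.87) and Ptprc (5.98) higher at week 16 than at week 8. Of all probe sets tested, 12.1% were called higher. The part of these cells in the members' changes was not tested.

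Pathway genes rose with the members between weeks 8 and 16, where 12.1% of all probe sets tested were called higher. Higher were 5 of 9 tested granule genes, led by Srgn at 4.76 and Ctsw at 3.61, and 5 of 5 NK-type receptors and adaptors, led by Tyrobp at 3.87, Fcer1g (an adaptor shared with Fc receptors) at 3.78 and Klra7, an inhibitory Ly49 receptor, at 2.86. The Klra7 probe set may bind related Ly49 genes. Of the interferon-gamma receptor and targets 12 of 13 were higher, led by Cxcl9 at 6.43, Gbp2 and Igtp (interferon-inducible GTPases) at 5.17 and 4.73, and Iigp1 at 4.24, while Ifng itself was near background. Ifng averaged 3.36 at week 16 and 2.77 at week 8, a log2 difference of 0.59 (SE 0.284, limma adjusted p = 0.095 in the fit without the floor). Ncr1, a defining NK cell gene, was 2.09 higher, with a mean of 4.52 at week 16 and 2.44 at week 8. It was the only 1 of the 3 NK cell markers with a probe set that passed the floor.

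The lacrimal glands of LTBR-Ig mice at week 16 were also set against those of untreated mice at week 8, when treatment began. Klrd1 at 2.08 (SE 0.364, limma adjusted p = 7.7e-05), Nkg7 at 1.99 (SE 0.458, adjusted p = 0.0013) and Klrk1 at 1.4 (SE 0.502, adjusted p = 0.032) were higher, 3 of the 6, where 6.06% of all probe sets were called higher. All week 8 values of these 3 genes were under the floor, so the changes depend on where background sits. Klrk1 also averaged only 3.65 in the LTBR-Ig arrays, under the floor. Gzma at 0.38, Eomes at 0.26 and Gzmk at 0.21 were not called, with adjusted p from 0.36 to 0.69. In this comparison 12 of 13 interferon-gamma genes were higher, Cxcl9 by 5.39 and Gbp2 by 4.40, and Ncr1 was not called (0.68, adjusted p = 0.15). Leukocyte markers were also higher, with 6 of 8 T cell genes, 5 of 6 B cell genes, 5 of 6 myeloid genes and Ptprc. The part of these cells in the members' changes was not tested. The calls of Klrd1 and Nkg7 were made in each of the 8 fits that left out 1 array. That of Klrk1 was made in 3 of them and lost without LTBR-Ig replicate 1 or 4 or without untreated replicate 1, 3 or 4 of week 8 (adjusted p from 0.05 to 0.14), and also in the fit without the floor (adjusted p = 0.074). For the granzymes and Eomes a difference from week 8 was not shown.

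Placed in order over all 16 groups, Klrd1 was highest in lacrimal MOPC-21 mice of week 16 (6.72 ± 0.44), then untreated of week 16 (6.45 ± 0.43), MOPC-21 of week 12 (6.25), untreated of week 14 (6.16), untreated of week 12 (5.59), LTBR-Ig of week 12 (5.44) and LTBR-Ig of week 16 (4.67 ± 0.60; SD, n = 4). The first 6 of these overlapped with their neighbours. The LTBR-Ig arrays of week 16 overlapped with both LTBR-Ig and untreated arrays of week 12 and with no array of week 14. Below them came the 8 salivary groups, from 3.53 down to 2.71, and last the lacrimal glands of week 8 (2.58 ± 0.33).

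In salivary glands, LTBR-Ig against MOPC-21 at week 16 gave 0 calls for Gzma, the 1 gene tested, where limma called 7 (0.0357%) of 19617 probe sets. Gzma was at 3.57, 3.82, 3.84 and 3.82 in LTBR-Ig arrays, against 3.86, 4.14, 3.99 and 3.85 in MOPC-21 arrays. All LTBR-Ig arrays were lower, by a narrow margin (log2 change -0.19, SE 0.156, adjusted p = 1), where 4.81% of all probe sets had every LTBR-Ig array lower. Klrd1, not tested because it was under the floor, had 2.61, 2.64, 3.04 and 2.55 in LTBR-Ig arrays, against 3.71, 3.58, 3.27 and 3.57 in MOPC-21 arrays. Its log2 change in the fit without the floor was -0.82 (SE 0.184, adjusted p = 0.23).

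With age, salivary Gzma had 4.76, 3.87, 3.85 and 4.26 at week 16, against 3.33, 3.28, 3.13 and 3.54 at week 8 in untreated mice. The arrays did not overlap, as for 15.2% of all probe sets in this direction, but the log2 change of 0.86 (SE 0.156, limma adjusted p = 9.6e-05) was under 2-fold, so 0 of 1 was called (4.29% of all probe sets were called higher). None of the T cell and B cell markers passed the floor in salivary glands in any group.

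**Figure D4:**
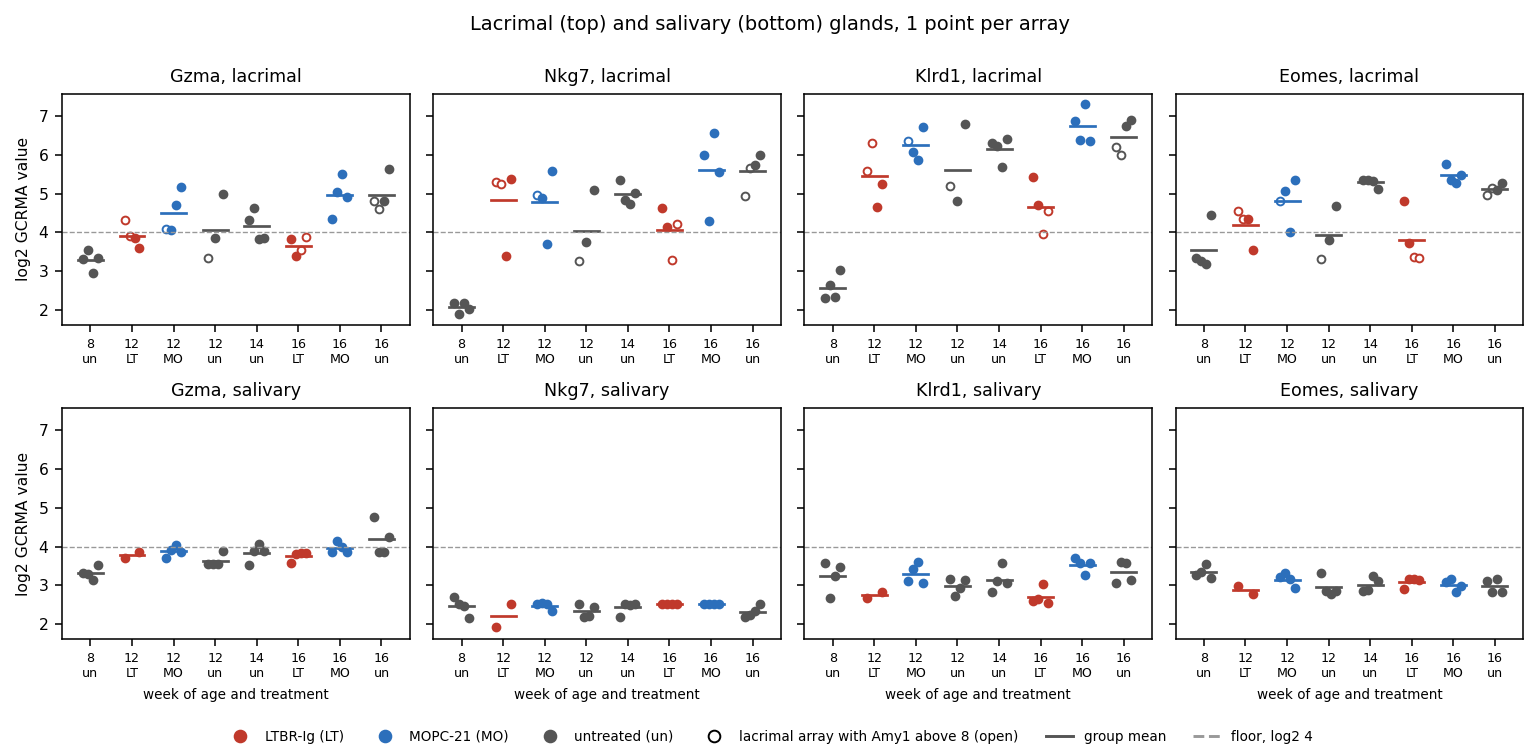
Log2 GCRMA values of Gzma, Nkg7, Klrd1 and Eomes in lacrimal (top row) and salivary glands (bottom row) by week of age and treatment, 1 point per array with a bar at the group mean and a dashed line at the floor of 4. Open points are lacrimal arrays with Amy1 above 8. Salivary Nkg7, Klrd1 and Eomes stay under the floor in all 30 arrays, and salivary Gzma reaches 4.76.

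The glands were compared directly in a fit of all 61 arrays, which takes the arrays as independent because the labels do not say which lacrimal and salivary samples came from 1 mouse. Of the 6 genes tested there, all but Gzma were under the floor in all 30 salivary arrays and entered the fit through lacrimal arrays alone, so these differences set lacrimal levels against salivary background. At week 16 untreated lacrimal glands were higher than salivary glands for Nkg7 (log2 difference 3.26), Klrd1 (3.11), Klrk1 (2.55) and Eomes (2.12), 4 of the 6 tested, where 11.9% of all 21626 probe sets were called higher in lacrimal glands. Gzmk at 0.99 and Gzma at 0.78 were under 2-fold, with limma adjusted p of 0.0013 and 0.0053. At week 8, 0 of the 6 differed (18.8% of all probe sets were called, in either direction), with log2 differences from -0.66 (Klrd1) to 0.22 (Eomes), but nearly all values then were under the floor in both glands.

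The interactions between gland and age or treatment have the same limit, since a salivary change under the floor could not be measured, and no difference between the glands in response is read from them. Lacrimal minus salivary, the change between weeks 8 and 16 was 3.77 for Klrd1, 3.65 for Nkg7, 2.83 for Klrk1 and 1.91 for Eomes, with limma adjusted p of 2.5e-05 or less, where 12.6% of all probe sets were called in that direction. With the week 16 effect of LTBR-Ig over MOPC-21 in place of age, the difference was called for 2 of the 6, Eomes at -1.72 (SE 0.352, adjusted p = 0.0078) and Gzmk at -1.23 (SE 0.372, adjusted p = 0.045), where 2.61% were called lower. Gzma, the only member above the floor in any salivary array, was at -1.10 (SE 0.346, adjusted p = 0.055), which missed the threshold. The limit holds for Gzma here too. Its salivary values of week 16 were 3.57 to 3.84 under LTBR-Ig and 3.85 to 4.14 under MOPC-21, under or just over the floor. The other 3 ran from -1.64 (Klrk1) to -1.24 (Klrd1), with adjusted p from 0.055 to 0.072. Leaving out 1 array gave from 1 to 6 members for this last count, with 6 without LTBR-Ig replicate 1 or without MOPC-21 replicate 2 of the lacrimal arrays, and 0 remained without the arrays high in Amy1.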

How the data were processed

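Per the labels and the study's methods, RNA was amplified and hybridised to Affymetrix mouse genome arrays, 1 array per sample, and the authors normalized the scans by GCRMA (version not given in the sources used here). The deposited values are log2 expression levels, used as given. They carry no depth, and the number of arrays limits the precision. GCRMA pulls dim probe sets to a floor, which compresses changes near it.

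Probe sets over log2 4 in 2 or more arrays of any group were tested with limma 3.58.1 in R 4.3.3 (1 mean per group, moderated variance with trend), separately in 31 lacrimal arrays (20077 probe sets) and 30 salivary arrays (19617), and jointly in 61 arrays (21626) for comparisons between glands. A call needed 2-fold and a Benjamini-Hochberg adjusted p under 0.05 over all probe sets tested. The fit was tested on simulated data. Of the 45101 probe sets, 34958 had 1 gene symbol, 932 several and 9211 were not listed, and only the first kind named a gene. No 2 arrays were identical.

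The members and gene lists were chosen with earlier results of these data known. Named were all 10 members, up to 4 called genes per list by size of change, and the 3 genes most correlated with each tested member. Alternatives were the posterior probability, no fold minimum, any probe set of a gene, no floor, a floor of 6, quantile normalization, a replicate block, the groups' arrays alone and leaving out single arrays. Leaving out arrays with Amy1 above 8 was added after seeing the data.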

Additional observations from a re-analysis of the deposited data

Results flagged for a closer look

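Sets of 4 values, each of 1 gene in 1 group, were examined. In 5 of 49 such sets, 1 array stood apart from the other 3. Chance gives about 1 in 20 if values are normally distributed, and sets of different genes share arrays, so they are not independent. Nkg7 in LTBR-Ig lacrimal replicate 3 of week 12 was at 3.40, where the others were from 5.25 to 5.36. Eomes in untreated lacrimal replicate 4 of week 8 was at 4.44, where the others were from 3.18 to 3.34. Eomes in untreated lacrimal replicate 4 of week 14 was at 5.12, where the others were from 5.33 to 5.35. In salivary glands Gzma was at 3.57 in LTBR-Ig replicate 1 of week 16, where the others were from 3.82 to 3.84, and at 3.89 in untreated replicate 4 of week 12, where the others were from 3.54 to 3.55.

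In the fit of both glands, limma called an interaction between gland and LTBR-Ig treatment at week 16 (lacrimal minus salivary, against MOPC-21) of -1.72 for Eomes (adjusted p = 0.0078) and -1.23 for Gzmk (adjusted p = 0.045). It also called an interaction between gland and age (untreated mice, week 16 against week 8) of 3.77 for Klrd1 (adjusted p = 4.1e-10), 3.65 for Nkg7 (3.6e-08), 2.83 for Klrk1 (2.5e-05) and 1.91 for Eomes (2.1e-05), on the log2 scale. These 5 genes were under the floor in all 30 salivary arrays and entered the fit through lacrimal arrays alone, so no salivary effect was measurable for them.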

How the results depend on the processing

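The LTBR-Ig calls of week 16 depended on the rule and on single arrays. Against MOPC-21 the 6 calls became 1 by posterior probability, 1 with a floor of 6, 3 on the groups' own arrays and 0 without the Amy1-high arrays, and 2 to 6 when 1 array was left out. Against untreated mice the 5 calls became 0 by posterior probability, 1 with a floor of 6, 3 after quantile normalization and 0 without the Amy1-high arrays, and 0 to 5 when 1 array was left out. At a floor of 6 only Klrd1 was tested. Over all probe sets the 1180 calls against MOPC-21 became 45 by posterior probability, 4477 with no fold minimum, 741 of a smaller set at a floor of 6 and 22 without the Amy1-high arrays, and the 793 against untreated mice became 29, 1981, 500 and 0.

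In untreated lacrimal glands, the 3 calls of week 12 over week 8 became 1 by posterior probability, with a floor of 6 or on the groups' own arrays (2 to 4 without 1 array), and the 5 of week 16 over week 8 became 1 with a floor of 6 (5 to 6). Week 16 over week 12 gave 2 in place of 0 with no floor (0 to 5). LTBR-Ig at week 16 over untreated at week 8 gave 1 in place of 3 by posterior probability or a floor of 6 (2 to 3). Salivary week 16 over week 8 gave 1 in place of 0 with no fold minimum. Lacrimal over salivary at week 16 and its age interaction gave 1 in place of 4 with a floor of 6 (4 to 5 each). The treatment interaction gave 1 in place of 2 by posterior probability, with no floor or after quantile normalization, and 0 with a floor of 6 or without the Amy1-high arrays (1 to 6). The cause was not tested.

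Signs turned only for changes that were not called. Without the Amy1-high arrays these were, for LTBR-Ig over MOPC-21 at week 12, Gzmk (-0.55), Nkg7 (-0.34) and Klrk1 (-0.82), for LTBR-Ig over untreated at week 12, Gzmk (-0.0373), Nkg7 (-0.0405), Klrk1 (-0.53) and Eomes (-0.29), and for MOPC-21 over untreated at week 16, Nkg7 (-0.26) and Klrd1 (-0.0867). Between glands at week 8, Gzma turned to 0.00973 after quantile normalization and Klrk1 to 0.0548 with the replicate block. Leaving out 1 array gave for MOPC-21 over untreated at week 16 Gzma -0.20 to 0.21 and Nkg7 -0.29 to 0.46, for LTBR-Ig over MOPC-21 at week 12 Gzmk -0.26 to 0.29, Nkg7 -0.31 to 0.52 and Klrk1 -0.14 to 0.79, for LTBR-Ig over untreated at week 12 Gzma -0.50 to 0.32, Klrd1 -0.54 to 0.45 and Eomes -0.0439 to 0.64, for LTBR-Ig at week 16 over untreated at week 8 Eomes -0.069 to 0.55, and between glands at week 8 Gzma -0.12 to 0.0732 and Eomes -0.0741 to 0.35.

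Samples share only a replicate number. Deviations of same-numbered lacrimal arrays of week 16 correlated from -0.51 to 0.20 between LTBR-Ig and MOPC-21, with 1 of 4 best with its own number, and the replicate block left all 16 counts of members as they were, with 6 against MOPC-21.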

Other observations

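Of the effector transcription factors, 2 moved in the same direction in both glands of untreated mice, a pattern singled out after its values were seen. Between weeks 8 and 16, 4.49% of all lacrimal probe sets tested were called lower and 12.1% higher. In salivary glands 2.85% were called lower and 4.29% higher. No share was worked out for both glands together. Nfil3, a factor needed for NK cell development and also under circadian control, was lower at week 16 than at week 8 by a log2 change of -3.25 in lacrimal glands (5.19 at week 16 and 8.44 at week 8, limma adjusted p = 1.1e-08) and of -3.53 in salivary glands (5.52 at week 16 and 9.05 at week 8, adjusted p = 6.9e-08). Bhlhe40, a factor of activated T cells that is also part of the clock, was higher by 2.38 in lacrimal glands (adjusted p = 7e-09) and by 1.99 in salivary glands (adjusted p = 3.7e-11). Between LTBR-Ig and MOPC-21 lacrimal glands of week 16 neither was called (-0.01 for Nfil3 and -0.20 for Bhlhe40). In salivary glands, where no T cell or B cell marker passed the floor, Il15, a cytokine that sustains NK cells and memory CD8 T cells, was also higher at week 16 (1.4, adjusted p = 8.7e-05).

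The second Eomes probe set was under the test's filter. Its log2 change in the fit without the floor was -1.02 (SE 0.215, limma adjusted p = 0.0083) for LTBR-Ig over MOPC-21 lacrimal glands of week 16.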
